A study of Homo sapiens with 2 samples.

Results

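NADH:ubiquinone oxidoreductase, complex I of the respiratory chain, takes electrons from NADH in the mitochondrial matrix and passes them along a chain of iron-sulphur clusters to ubiquinone, while its membrane arm pumps protons. Most of its subunits are encoded in the nucleus by genes whose symbols begin with NDUF, and the remaining core subunits by mitochondrial DNA. The NDUFAF genes encode assembly factors, which help to build or modify the complex and are absent from the finished enzyme. NRF-1 (nuclear respiratory factor 1) is a transcription factor that binds a GC-rich palindrome near the start of many nuclear genes for respiratory-chain proteins. AATF is a nuclear protein that has been described as an RNA polymerase II-binding factor, and the study asked whether NRF-1 depends on it at such genes.

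Every protein_coding gene of the GENCODE annotation (release 44, mapped to hg19) with a symbol beginning in NDUF was taken, which gave 48 of 19794 coding genes. Of these, 37 encoded complex I subunits, 7 of them core subunits of the catalytic arm and 30 accessory subunits, and 8 were NDUFAF assembly factors. The other 3 are not parts of complex I and were kept because the symbol rule takes them. They were NDUFA4, whose product is now placed in complex IV, its paralogue NDUFA4L2, and the readthrough gene NDUFC2-KCTD14, which shares its promoter with NDUFC2.

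NRF-1 was immunoprecipitated from U251 cells, an established human glioblastoma line, after transfection with a control siRNA (siControl) or an siRNA against AATF (siAATF). Both groups came from the same line, were treated with an siRNA and an NRF-1 antibody, and differed only in the siRNA target. The time between transfection and harvest was not given for this assay in the sources used here, and the knockdown itself cannot be read from peak positions. There was 1 list of peaks per condition, 18014 for siControl and 18454 for siAATF, so no spread between replicates could be computed and no test between conditions was made. Read totals were not part of the lists and the depth was unknown. Each peak came with a fold enrichment over the local background and a −log10 q, the significance given by the peak caller. Each was turned into a percentile rank within its own list, from 0 for the weakest peak to 100 for the strongest, and lists were compared by rank only. A promoter peak was a peak within 1 kb of any coding transcript start, and the strongest by fold enrichment was used where a gene had several.

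The NRF-1 palindrome, GCGCATGCGC, was searched as a word of 10 letters on both strands of every promoter peak. Of the 44 NDUF genes with a promoter peak, 17 held this word with up to 1 mismatch and 4 held it exactly. Each site is shown here with 10 bases on either side, in the direction of the gene, with the word in capitals. Positions give the first base of the word relative to the canonical transcript start, negative upstream. The exact words are shown first, then sites with 1 mismatch from peaks with a high −log10 q, and last that of NDUFA9, whose peak had the lowest siControl −log10 q, 19.4, of those with the word. The bases are those of the GRCh37 primary assembly.
NDUFA8 at −4: gttgccggatGCGCATGCGCaggcgccgtg
NDUFAF5 at −4: agccgcgctgGCGCATGCGCacaaaaagcg
NDUFB4 at −159: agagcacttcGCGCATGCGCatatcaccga
NDUFS8 at 222: ggctctcaggGCGCATGCGCcgcccgctct
NDUFA6 at −168, C2A: ttctgtagatGAGCATGCGCagcacccacc
NDUFAF4 at 6, G9T: cctcacttgtGCGCATGCTCcgggtgtccc
NDUFA3 at −170, T6C: ctgcgcgagtGCGCACGCGCaggctccgaa
NDUFB7 at 190, T6G: gaggcccagtGCGCAGGCGCagccagaggg
NDUFA12 at −116, T6C: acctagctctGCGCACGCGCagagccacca
NDUFS7 at −75, G1C: gttccggtttCCGCATGCGCtccgagccgc
NDUFS6 at −46, C10T: cagaagccgtGCGCATGCGTtagcgctaag
NDUFA9 at −80, A5T: ttcttggttaGCGCTTGCGCagacaggcga
A token such as T6C gives the base of the word, its position counted from 1 at the 5′ end, and the base found at the site. NDUFA8 held a second word at 2, T6G, which overlapped its exact word, and NDUFA3 and NDUFS7 each held a second word with 1 mismatch, at −73 and −420.

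The exact words stood at chr9:124922053-124922062 in NDUFA8, chr20:13765670-13765679 in NDUFAF5, chr3:120315024-120315033 in NDUFB4 and chr11:67798370-67798379 in NDUFS8. Of the 14 genes with a 1-mismatch word whose bases were read out, 9 (64.3%) had the mismatch in either middle letter of the palindrome. Over all coding genes with such a word in the siControl promoter peak, the share was 75.5% of 2593. Read in the direction of the gene, the most frequent substitution was T6G, in 4 genes, followed by T6C in 3 and C10T in 2. The word is a palindrome, so the A5G of NDUFA11 reads as T6C on the other strand. The lead of T6G over T6C therefore depends on the strand read. The word began between −200 and 50 of the start in 13 of the 17 genes, and only elsewhere in NDUFAF6, NDUFB11, NDUFB7 and NDUFS8.

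The NDUFB4 promoter was the one member promoter with 3 words, and is shown because its words lie close together under a strong peak. NDUFB4 encodes an accessory subunit of the membrane arm. The stretch is chr3:120315013-120315184 of hg19 on the plus strand, from 170 bases before the canonical start to the base after it, with all words in capitals.
NDUFB4 promoter: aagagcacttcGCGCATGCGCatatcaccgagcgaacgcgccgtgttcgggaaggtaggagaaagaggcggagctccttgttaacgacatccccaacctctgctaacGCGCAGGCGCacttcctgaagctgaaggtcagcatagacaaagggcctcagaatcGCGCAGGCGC
The first word was exact and the others, at −63 and −8, carried T6G. The peak over it was at chr3:120314732-120315582 in siControl, with a fold enrichment of 9.47, and at chr3:120314792-120315613 in siAATF, with a fold enrichment of 9.52. It ranked 95.1 and 98.1 in the respective lists.

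**Figure D1:**
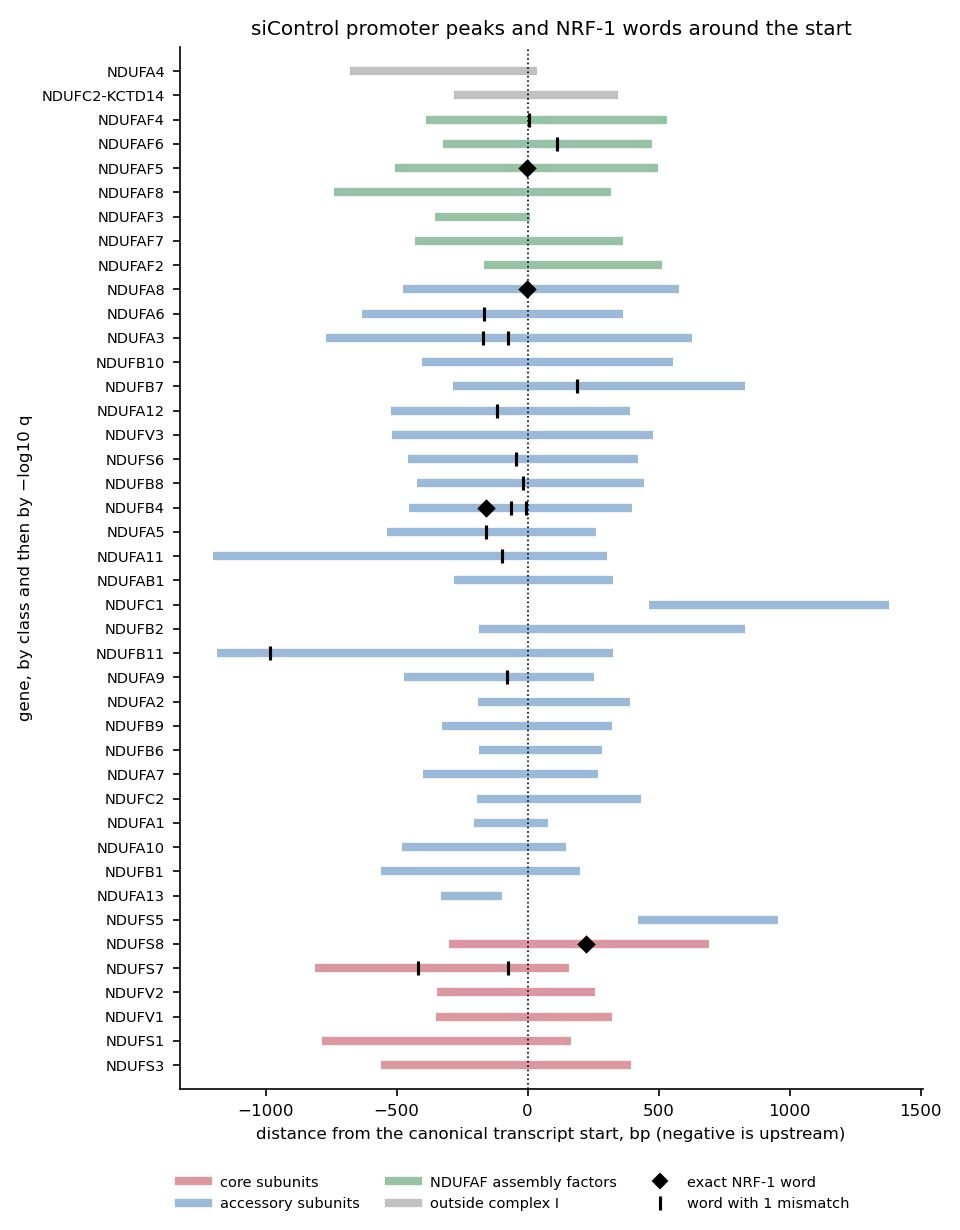
Extent of the siControl promoter peaks of NDUF genes (bars, coloured by class) in bp from the canonical transcript start, with exact NRF-1 words (diamonds) and words with 1 mismatch (ticks). Within a class genes are ordered by −log10 q, highest at the top, and NDUFA4L2, whose peak lay upstream of the plotted range at another of its starts, is left out. Words crowd at the upper end of the accessory subunits and NDUFAF genes, and NDUFC1, NDUFS5 and NDUFA13 are the peaks shown that did not reach the start.

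A promoter peak was present at 44 of 48 NDUF genes (91.7%, exact 95% interval 80 to 97.7) in siControl and at the same 44 in siAATF. The share over all coding genes was 61.1% in siControl and 60.7% in siAATF. Subunits and assembly factors had similar shares, with 34 of 37 subunit genes (91.9%, 78.1 to 98.3) and 7 of 8 NDUFAF genes (87.5%, 47.3 to 99.7) in both lists. With 8 genes the second interval holds the first, and a difference between the classes was not detectable. All intervals cover counting error only.

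By family, a promoter peak was found at 3 of 3 NDUFV genes, 7 of 8 NDUFS genes, 12 of 12 NDUFA subunit genes, 9 of 11 NDUFB genes and 2 of 2 NDUFC genes, and at NDUFAB1. The 4 genes without a peak in either list were NDUFB3 and NDUFB5, accessory subunits of the membrane arm, NDUFS4, an accessory subunit at the NADH-oxidising end, and NDUFAF1, an assembly factor that acts on the membrane arm. Their nearest siControl peaks were 44.3 kb from the canonical start of NDUFB3, 40.9 kb from that of NDUFB5, 78.3 kb from that of NDUFS4 and 14.3 kb from that of NDUFAF1. In the 300 bases from 250 before to 50 after those starts, none of the 4 held the NRF-1 word with up to 1 mismatch.

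When only peaks with a −log10 q of at least 5 were kept, a promoter peak remained at 32 NDUF genes (66.7%) in siControl and at 36 (75%) in siAATF. Over all coding genes the share was 51.4% in siControl and 51.4% in siAATF. The 12 genes with only a weaker siControl peak included NDUFA1, NDUFA10, NDUFA13, NDUFB1, NDUFC2 and its readthrough, NDUFS1, NDUFS3, NDUFS5, NDUFAF2 and NDUFAF7. None of those peaks held the NRF-1 word with up to 1 mismatch. Of those named, NDUFA10, NDUFS3 and NDUFAF7 passed 5 in siAATF. In all, 4 of the 12 (33.3%) did. Over all coding genes with a siControl −log10 q under 5 and a peak in both lists, 400 of 1604 (24.9%) did. All these genes were picked by a low siControl value, and the same count starting from the siAATF list was not made.

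The strength of the peaks covered nearly the whole range of the lists. The median rank by fold enrichment of the 44 NDUF peaks was 66.6 in siControl and 67.3 in siAATF, against 63.4 and 64.4 for the promoter peaks of all coding genes. By −log10 q, 18 of 44 NDUF peaks (40.9%) ranked 80 or above in siControl, against 30.3% of the promoter peaks of all coding genes, and 6 (13.6%) ranked under 20, against 7.62%. In siAATF, 18 again ranked 80 or above and 3 (6.82%) under 20, against 31.3% and 6.87%.

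**Figure D2:**
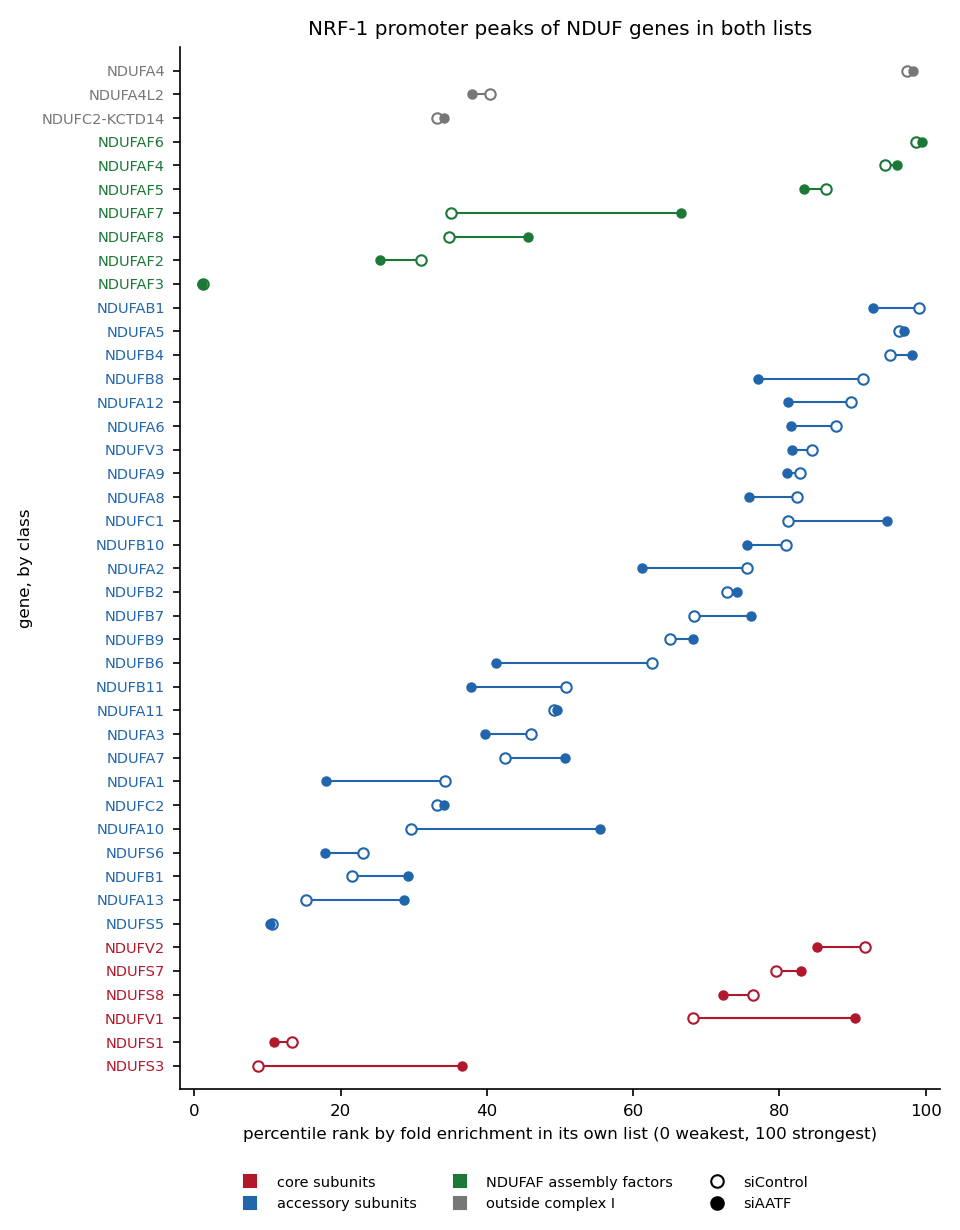
Percentile rank by fold enrichment of the promoter peaks of NDUF genes, open circles for siControl and filled circles for siAATF, coloured and grouped by class and ordered by siControl rank. Each class reaches from low to high ranks, and most pairs of circles lie close together, with those of NDUFAF7, NDUFS3, NDUFA10, NDUFV1 and NDUFB6 over 20 points apart.

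The core subunit genes had both strong and weak peaks. NDUFV1 carries the flavin that accepts electrons from NADH, NDUFV2 and NDUFS1 carry iron-sulphur clusters beside it, NDUFS7 and NDUFS8 carry the clusters nearest to ubiquinone, and NDUFS3 belongs to the arm around the ubiquinone site. NDUFS7 and NDUFS8 held the NRF-1 word and had the highest −log10 q of these genes. It was 55.2 in siControl and 51.7 in siAATF for NDUFS7 (chr19:1383093-1384065 in siControl), and 55.4 and 47.0 for NDUFS8 (chr11:67797847-67798842). Both peaks spanned the start and the whole of exon 1.

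NDUFV1 and NDUFV2 had no NRF-1 word and by −log10 q lay in the middle of the core genes. The NDUFV1 peak (chr11:67374056-67374730 in siControl) had a −log10 q of 13.7 in siControl and 18.3 in siAATF. For NDUFV2 (chr18:9102350-9102955) it was 21.5 and 20.4, with a rank by fold enrichment of 91.7 and 85.2. By fold enrichment the order differed. In siControl NDUFV2 ranked above NDUFS7, at 79.6, and NDUFS8, at 76.4, while NDUFV1, at 68.2, ranked below them. In siAATF NDUFV1, at 90.3, and NDUFV2 both ranked above NDUFS7, at 83.0, and NDUFS8, at 72.3. The siControl peaks of NDUFS1 and NDUFS3 were weak.

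NDUFS1 (chr2:207024001-207024951 in siControl) had a −log10 q of 2.11 in siControl and 1.89 in siAATF, with ranks of 13.4 and 10.9 by fold enrichment, and its siAATF peak did not reach the canonical start. NDUFS3 (chr11:47600067-47601019) had 1.98 and 5.14. The NDUFS1 peak also covered the start of EEF1B2 and the NDUFS3 peak that of KBTBD4, and a peak between divergent starts cannot be assigned to either gene.

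Accessory subunits gave both the strongest peaks by −log10 q and a weak tail. The median −log10 q of the 27 with a peak was 28.8 in siControl and 25.2 in siAATF, from 1.87 to 92.0 in siControl. NDUFA8, a subunit on the intermembrane-space side, had the highest −log10 q of all NDUF genes, 92.0 in siControl and 80.1 in siAATF, which is a rank of 99.1 and 98.6. Among the other accessory subunits, NDUFA6 had 85.1 and 71.8, and NDUFA3 had 73.1 and 65.6. All 3 held the NRF-1 word.

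By fold enrichment the order was different. The highest siControl rank was that of NDUFAB1, the mitochondrial acyl carrier protein, which also serves fatty acid synthesis. Its fold enrichment was 10.6 in siControl and 8.63 in siAATF, with ranks of 99.1 and 92.8, and its peak (chr16:23607310-23607916) held the word only with 2 mismatches. NDUFA5, a subunit of the arm around the ubiquinone site, ranked 96.4 and 97.0, and NDUFB4 came next among subunits.

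The lowest accessory ranks by fold enrichment in siControl belonged to NDUFS5, at 10.7, and NDUFA13, also known as GRIM-19, at 15.2. The NDUFS5 peak did not touch its canonical start but lay 421 to 954 bp downstream of it in siControl, with a −log10 q of 1.87, and 317 to 725 bp downstream in siAATF, with 1.86. The NDUFA13 peaks of the lists overlapped by 38 bp only and had a −log10 q of 2.63 and 3.66. NDUFC1 also had its peak downstream, 462 to 1379 bp from the canonical start in siControl, and there it covered the start of NAA15.

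The 7 NDUFAF genes with a peak also ran from strong to weak. NDUFAF4 works on the ubiquinone-binding module together with NDUFAF3, NDUFAF5 is an arginine hydroxylase of NDUFS7 and NDUFAF6 acts early in assembly. These 3 genes, NDUFAF4, NDUFAF5 and NDUFAF6, held the NRF-1 word, and their −log10 q was 82.7, 61.0 and 68.1 in siControl and 76.0, 52.1 and 66.1 in siAATF. Their ranks by fold enrichment in siControl were 94.4, 86.3 and 98.7.

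The other 4 NDUFAF peaks were weak by fold enrichment in siControl and held no word. NDUFAF7, an arginine methyltransferase, had a −log10 q of 4.33 in siControl and 9.65 in siAATF. NDUFAF8, the partner of NDUFAF5, had 10.3 and 11.7, and NDUFAF2, an assembly paralogue of NDUFA12, had 3.85 and 3.35. NDUFAF3 had the lowest fold enrichment of all NDUF genes, 2.82 in siControl (chr3:49059200-49059564) and 2.71 in siAATF, a rank of 1.23 and 0.992, yet its −log10 q of 6.11 and 5.09 ranked 37.4 and 33.7.

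The median rank by fold enrichment was 35.1 for the NDUFAF genes in siControl (order-statistic 95% interval 1.23 to 98.7) and 68.3 for the subunits (42.5 to 81.2). In siAATF the medians were 66.6 (0.992 to 99.5) and 70.2 (39.8 to 81.0). With 7 peaks the NDUFAF interval covers almost the whole scale and holds that of the subunits in both lists. The NDUFAF median was the NDUFAF7 peak itself in each list, and without that gene the medians were 60.6 and 64.4. A difference between subunits and assembly factors was not detectable with these numbers.

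NDUFAF6 was the only NDUF gene with several promoter peaks, 3 in each list at different annotated starts. The strongest spanned the canonical start, from −322 to 473 bp in siControl. In siControl the others lay from −76557 to −75349 bp and from −130364 to −128697 bp, at further starts of the gene. The farther of them ranked 40.0 by fold enrichment in siControl and 47.2 in siAATF. The promoter peak of CCNE2 had the same ranks, so this peak cannot be assigned to NDUFAF6 alone. Other coding starts were listed only for the strongest promoter peak of a gene, so the peak between was not checked for them. The −log10 q of these further peaks, the nearer given first, was 12.2 and 52.3 in siControl and 10.3 and 51.4 in siAATF.

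NDUFA4, outside complex I, ranked among the highest by fold enrichment, 97.5 in siControl and 98.3 in siAATF, with a −log10 q of 41.7 and 37.2. Its peak (chr7:10979743-10980459 in siControl) ended 37 bp past the start. NDUFA4L2, which is known to be induced in hypoxia, had no peak at its canonical start. Its promoter peak lay from −3781 to −2829 bp in siControl, at another coding start, with a −log10 q of 12.5 in siControl and 11.5 in siAATF. NDUFC2 and NDUFC2-KCTD14 shared a peak, with a −log10 q of 3.97 and 3.80.

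Fold enrichment and −log10 q placed some genes far apart. NDUFS6, a zinc-binding accessory subunit, had a fold enrichment of only 4.26 in siControl and 3.95 in siAATF, ranks of 23.1 and 17.8, but a −log10 q of 47.6 and 41.6, ranks of 84.3 and 83.8. For NDUFA3 the siControl rank was 46.1 by fold enrichment and 94.0 by −log10 q. The NDUFS6 peak was 879 bp wide and the NDUFA3 peak 1395 bp, beside a median of 824 bp over the NDUF peaks.

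The NRF-1 word went with the strength of the peak, and peak width, which sets how many letters were searched, was not taken into account. By fold enrichment the median siControl rank was 82.9 for NDUF peaks with the word and 35.1 for those without. In siControl, the 17 NDUF peaks with the word had a median −log10 q of 55.4 and the 27 without it 6.80, and in siAATF the medians were 52.1 and 8.21. The promoter peaks of all coding genes showed a difference of the same kind, 66.4 with the word and 12.3 without in siControl. Of the 18 NDUF peaks ranking 80 or above by −log10 q in siControl, 15 held the word (83.3%), and of the 26 lower ones 2 did (7.69%). The corresponding shares over all coding genes were 66.6% and 5.39%. The 3 strong peaks without the word were those of NDUFA4, NDUFB10 and NDUFV3.

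**Figure D3:**
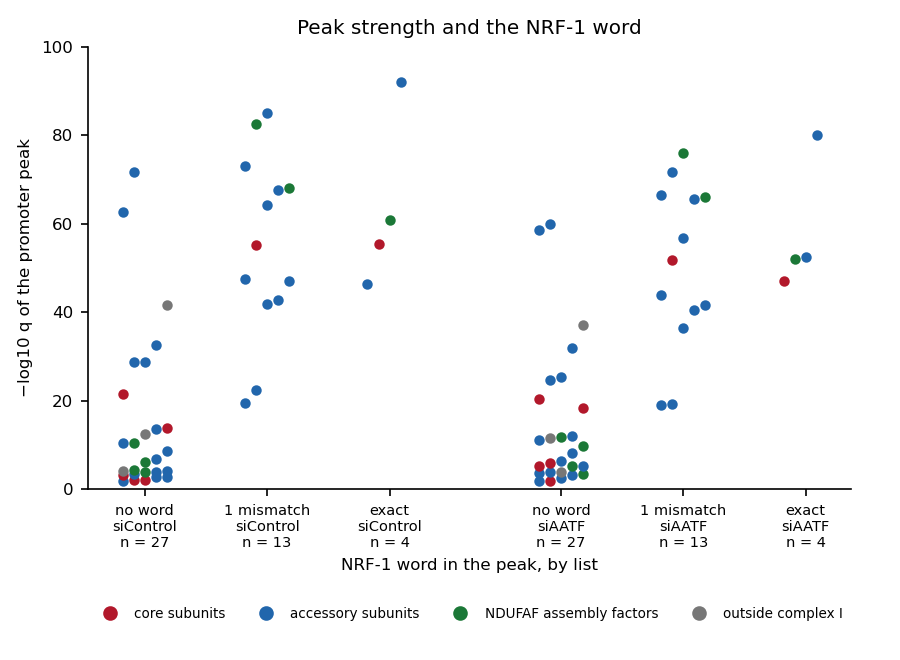
The −log10 q of each NDUF promoter peak in siControl (left) and siAATF (right) by whether it held no NRF-1 word, a word with 1 mismatch or the exact word. Each point is a gene coloured by class. All peaks with a word were above 19, and most of those without one were under 20.

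The word was held by 17 of 44 NDUF peaks (38.6%, exact 95% interval 24.4 to 54.5) in each list, against 23.9% of the promoter peaks of all coding genes in siControl and 24% in siAATF. An exact word was in 4 NDUF peaks (9.09%), against 3.89% over all coding genes in siControl. A control palindrome of the same base composition, CGCAGCTGCG, was found with up to 1 mismatch in 7 NDUF peaks (15.9%) and in 15.8% of all in siControl. With up to 2 mismatches allowed, the NRF-1 word was in 63.6% of NDUF peaks and 67.3% of all in siControl. By class, the word was in 14 of 34 subunit peaks (41.2%) and 3 of 7 NDUFAF peaks (42.9%).

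The same words were counted in the 300 bases from 250 before to 50 after every canonical start, whether or not a peak was there. The NRF-1 word with up to 1 mismatch was in 13 of 48 NDUF promoters (27.1%) and in 10.5% of the promoters of all coding genes, and the control palindrome in 8.33% and 4.3%. The word AAGATGG, which contains the core bound by YY1, was in 12 NDUF promoters (25%) and 6.46% of all. The word CCGGAAG of the ETS family, to which GABP (NRF-2) belongs, was in 10 (20.8%) and 14% of all. The CCAAT box, CCAAT, was in 25% and 36%, the GC box, GGGCGG, in 66.7% and 61.3%, and TATAAA in 6.25% and 9.74%. All words were searched on both strands, and the absence of a word says only that these letters are not in the window.

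**Figure D4:**
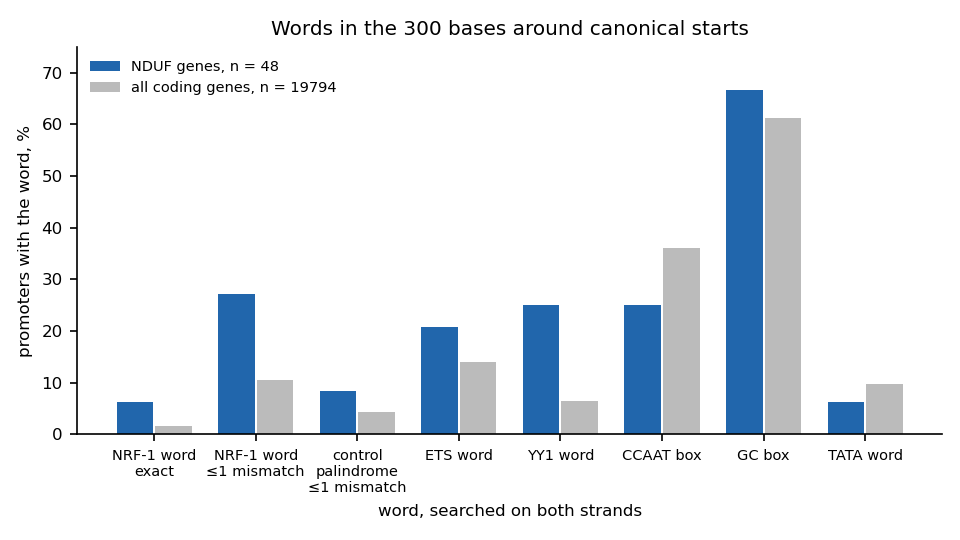
Share of promoters (%, 300 bases around the canonical start) that held each word on either strand, for the 48 NDUF genes (blue) and all 19794 coding genes (grey). The NRF-1 and YY1 words were in 27.1% and 25% of the NDUF promoters, against 10.5% and 6.46% of all.

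Among the 4 genes without a peak, NDUFB5 held the YY1, ETS and CCAAT words and a GC box in that window. NDUFS4 held the YY1 word alone of those searched, and NDUFB3 and NDUFAF1 a GC box alone.

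Promoter peaks were chosen within 1 kb of a coding start, so their nearness to it is partly set by that rule. Most of the peaks spanned the canonical start, which was not counted over all coding genes. In siControl, 40 of 44 peaks spanned the canonical start, 37 covered the whole of exon 1, and the midpoint lay within 500 bp of the start in 41. In siAATF, 38 spanned the start, 34 covered exon 1 and 41 had their midpoint within 500 bp. Many of the promoters were shared with another gene. The start of another coding gene lay in the peak of 19 NDUF genes (43.2%) in siControl and 20 (45.5%) in siAATF, against 21.9% and 22.4% of all coding genes with a promoter peak.

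Divergent or neighbouring genes so covered included MORN5 for NDUFA8, ESF1 for NDUFAF5, MRPL36 for NDUFS6, CEBPZ for NDUFAF7 and RPS28 for NDUFA7. MRPL36 and RPS28 encode ribosomal proteins, of the mitochondrial and the cytosolic ribosome. Peaks inside the gene span but away from any coding start of the gene were found for NDUFA2, NDUFA7, NDUFC1, NDUFS3 and NDUFV3, the same genes in both lists. All except that of NDUFC1 covered the start of another coding gene, and the strongest by −log10 q was that of NDUFV3, over the start of WDR4, with 79.6 in siControl and 71.7 in siAATF.

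Between the lists, ranks differed in both directions about equally often. The siAATF peak ranked higher by fold enrichment than the siControl peak for 22 NDUF genes and lower for 22, with a median difference of 0.07 points (order-statistic 95% interval −3.03 to 1.30). All 44 pairs of peaks overlapped, and 42 did so over at least 50% of both peaks, all but those of NDUFA13 and NDUFB1. The median difference was −1.12 points for the subunits (−6.15 to 3.07) and 0.81 for the NDUFAF genes (−5.58 to 31.5). The direction was the same by fold enrichment and by −log10 q for 37 of the 44.

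A peak ranked more than 20 points higher in siAATF for 5 NDUF genes (11.4%), against 3.65% of the 11774 coding genes with a promoter peak in both lists, and more than 20 points lower for 1 (2.27%), against 2.9%. Among the 5 were NDUFAF7, from rank 35.1 to 66.6, NDUFS3, from 8.66 to 36.6, NDUFA10, a nucleoside-kinase-like accessory subunit, from 29.6 to 55.5, and NDUFV1, from 68.2 to 90.3. NDUFB6, an accessory subunit of the membrane arm, ranked lower, from 62.5 to 41.2. With 1 list per condition no spread of such a difference is known.

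**Figure D5:**
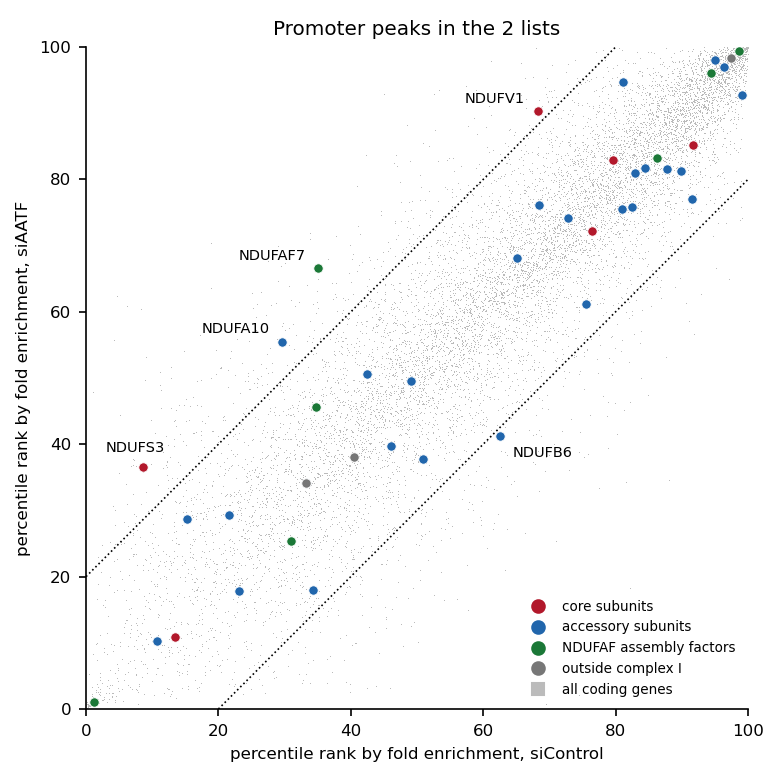
Percentile rank by fold enrichment of promoter peaks in siControl (horizontal) and siAATF (vertical), for NDUF genes (coloured points) over all coding genes with a promoter peak in both lists (grey). Dotted lines mark a difference of 20 points. NDUFAF7, NDUFS3, NDUFA10 and NDUFV1 lie above the upper line and NDUFB6 below the lower one.

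NDUFAF7, NDUFS3 and NDUFA10 had a siControl −log10 q under 5, and NDUFV1 one above it. Of all coding genes with a siControl −log10 q under 5 and a peak in both lists, 13.1% ranked over 20 points higher in siAATF, against 2.16% of those at 5 or above, while 2.74% and 2.92% ranked over 20 points lower. Only a peak ranked under 20 in siControl cannot rank over 20 points lower, and the cause of these shares was not tested. Genes were split by the siControl −log10 q, and the difference was also measured from the siControl rank. Peaks picked as weak in siControl may therefore rank higher in siAATF through that choice alone. A split by the siAATF −log10 q was not made, and this limit also holds for the NDUF counts that follow. Among NDUF genes, 4 of 12 (33.3%) under 5 and 1 of 32 (3.12%) at 5 or above ranked over 20 points higher. None of the 6 peaks that differed by over 20 points held the NRF-1 word, but 27 of all 44 NDUF peaks had no word. Of the 6, 4 were among the 12 under 5, none of which held it. The same share over all coding genes was not counted. Ranked by −log10 q, 2 genes were over 20 points higher in siAATF (4.55%), against 1.53% of all coding genes, NDUFS3 by 27.2 and NDUFAF7 by 23.2 points, and 0 were lower, against 1.06%.

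The ranks by −log10 q of the 17 peaks with the word differed by at most 4.58 points between the lists, the difference for NDUFB4. The median absolute difference was 2.20 points over all 44 NDUF peaks and 2.72 over all coding genes. Of the 17, 15 ranked 80 or above in siControl, and peaks of all coding genes with the word were not compared between the lists. NDUFA8 ranked 99.1 and 98.6, NDUFAF4 97.2 and 97.7, NDUFA6 97.8 and 96.5, and NDUFAF5 89.4 and 88.2. The widest difference by fold enrichment among them was that of NDUFB8, which ranked 91.5 in siControl and 77.0 in siAATF with a −log10 q of 47.1 and 36.5.

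Other gene groups served for comparison. Of 11 complex I assembly factors with other names, such as ACAD9, ECSIT and TMEM126B, 10 had one at the promoter in both lists, with a median rank by −log10 q of 60.4 in both, beside 51.3 and 56.5 for the NDUFAF genes. Complex III subunit genes had a peak at 9 of 10, with a median rank by −log10 q of 89.3 and 91.2 and the NRF-1 word in 6 of 9 peaks. ATP synthase genes had a peak at 18 of 20, with the word in the peaks of 9 of these 18 genes, which include a readthrough gene that shares a peak. Their medians by −log10 q were 73.6 and 73.8, close to the 72.5 and 71.6 of the complex I subunits. By fold enrichment the siControl and siAATF medians were 81.7 and 70.1 for ATP synthase genes and 74.5 and 75.7 for complex III. They were 68.3 and 70.2 for the complex I subunits. The assembly factors with other names had 73.8 and 72.1, and the NDUFAF genes 35.1 and 66.6. The groups were set side by side without a test.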

How the data were processed

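NRF-1 ChIP-seq libraries of U251 cells (siControl and siAATF) were made by ChIPmentation and sequenced from both ends. The study's methods state that reads were aligned to hg19 with Bowtie2 and peaks called with MACS2 in a pipeline for ATAC-seq with default parameters, which sets read shifting and peak edges. No input or IgG library was named. The assay was described as done in duplicate, each label carries replicate number 1, and pooling was not stated. The series design text names U138, and the sample labels, which name U251, were followed.

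Positions in bp, fold enrichment (a ratio), −log10 p and −log10 q were taken as deposited by the authors in broadPeak form. The −log10 p and the display score, both deposited by the authors, served no comparison. Peaks down to a −log10 q of 1.03 (siControl) and 1.02 (siAATF) were listed, so weak peaks were present.

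Promoters were 1 kb either side of any protein_coding start of GENCODE release 44 mapped to hg19, and a peak had to overlap by 1 bp. The canonical start was that of the tagged transcript, or the most upstream coding start where none was tagged, as for NDUFB6. Shares carry exact Clopper-Pearson 95% intervals and medians order-statistic binomial ones. Words were searched in the GRCh37 primary assembly. Python 3.11.15, numpy 2.4.6, scipy 1.17.1, pysam 0.24.0 and matplotlib 3.10.9 were used, and functions were tested on simulated data. The members, classes, words and comparison groups were chosen with earlier results of these data known. Named with values were members without a peak or with several, core subunits, all NDUFAF genes, exact words, the 5 highest and 5 lowest siControl ranks, rank differences over 20 points and the 3 genes outside complex I. 1 member is counted but not reported by name here. Alternatives were a −log10 q of at least 5, the 10000 strongest peaks, other windows and starts, ranking by −log10 q, reciprocal overlap and other mismatch limits.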

Additional observations from a re-analysis of the deposited data

How the results depend on the processing

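No paired analysis was possible because each condition had a single list. Of 73 values under alternatives, 58 stayed inside the interval of the main value or within 1.5 times the main count. For the median rank of the NDUFAF genes that interval covers almost the whole scale, so staying inside it says little. With a −log10 q of at least 5 and ranks taken among the kept peaks, that median was 79.9 in siControl, against 69.9 for the subunits. In siAATF the medians were 62.5 and 63.6. With a −log10 q of at least 5, the share of NDUF genes with a promoter peak was 66.7% in siControl and 75% in siAATF, and that of subunit genes 67.6% and 75.7%. Among the 10000 strongest peaks by fold enrichment, the share of NDUF genes was 56.2% in each list and that of subunit genes 62.2% and 59.5%. That of NDUFAF genes was 37.5% (3 of 8, 8.52 to 75.5) in siControl and 50% (4 of 8, 15.7 to 84.3) in siAATF. Both NDUFAF intervals hold the subunit shares. The share over all coding genes was not counted for this setting. The number of NDUF peaks that differed by over 20 points was 2 when ranked by −log10 q. By fold enrichment, 13 of 44 differed by over 10 points, a count that was not made over all coding genes. The median absolute difference by fold enrichment was 5.86 points over the NDUF peaks and 5.12 over all coding genes. The share of NDUF peaks with the NRF-1 word was 9.09% for the exact word and 63.6% with up to 2 mismatches in each list, the latter chosen after seeing the data, as was leaving out NDUFAF7. The median rank difference of 0.07 points became −0.03 when ranked by −log10 q, −1.67 with a −log10 q of at least 5, −0.24 without NDUFA4, NDUFA4L2 and the readthrough gene and −0.30 with 50% reciprocal overlap, all inside its interval. The cause of these differences was not tested beyond the number of peaks and words each setting admits. Without replicates or read totals, neither the spread nor an effect of depth on weak peaks could be measured.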
